A study of Arabidopsis thaliana with 4 samples.

Results

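Flavonols and anthocyanins are made from one flavonoid precursor and are stored in the vacuole with sugars attached, which makes them soluble and stable. UDP-glycosyltransferases (UGTs) add these sugars one at a time, each enzyme with its own sugar and its own position on the flavonoid. In Arabidopsis, complexes of MYB and basic helix-loop-helix (bHLH) factors with TTG1, in which GL3 and EGL3 serve as bHLH partners, are known to activate the late, anthocyanin-forming steps, while a separate group of MYB factors acts on the early, flavonol-forming steps.

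To ask whether transcripts of the sugar-adding steps differ in plants that lack GL3 and EGL3, 4 genes were followed: UGT78D1 (AT1G30530), UGT89C1 (AT1G06000), UGT78D2 (AT5G17050) and the anthocyanin glucosyltransferase gene AT4G14090. They were chosen by name from the annotation of the Affymetrix ATH1 array, where 1 probe set reads each of them. They are thus 4 of 13337 genes with a named probe set, and no probe set shared among several genes names any of them. UGT78D1 and UGT89C1 lie on chromosome 1, AT4G14090 on chromosome 4 and UGT78D2 on chromosome 5.

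By their labels, all 4 arrays measured total RNA of green tissue, without roots, from plants 20 days old. The study's text differs. Its methods name whole tissue for the gl1 mutant and wild type but green tissue for gl3 egl3, without saying which wild type arrays are meant. Its results name green tissue and a younger age for all 3 genotypes. A difference in tissue between the groups, if there was one, cannot be told apart from genotype. The wild type group holds 2 samples of the Landsberg erecta (Ler) accession. The other group holds 2 samples of gl3 egl3 double mutants, which form no leaf trichomes, and their titles name neither the accession nor the alleles. The study's methods speak of biologically independent material for its arrays, and where replicates differ only technically the p-values measure that spread alone. Values are log2 expression per probe set after GCRMA, a procedure that removes background, equalises the arrays and draws probe sets with little signal to just above 2. Means under 3 are called the low end here, where a difference says little. Levels of different probe sets cannot be compared with one another.

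The arrays were alike in overall signal, with median log2 values from 4.92 to 4.99 and 37.7% to 38.0% of probe sets under 3. The green tissue markers RCA and LHCB4.1, both of photosynthesis, were at 12.5 to 13.3 in each group. The root hair gene EXPA7 and the anther gene AT5G07230 lay at the low end. The beta-glucosidase gene PYK10, strong in roots, read 10.75 and 10.64 on the wild type arrays, between the mutant values of 10.04 and 11.04. All 6 trichome markers measured, GL2, TRY, MYB23, ETC1, TTG2 and GL1, had group means between 2.19 and 2.48, which is the low end. EGL3 lay there too, with a log2 difference of 0.00, so that these arrays give no check of the labels from the mutated genes, and GL3 was not analysed here. In whole tissue, fewer cells of a type and less RNA per cell cannot be told apart.

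UGT78D1, the enzyme that joins rhamnose to the C-ring hydroxyl of flavonols, showed the largest difference of the 4 genes. Its log2 expression was 8.57 and 8.05 on the wild type arrays, and 7.56 and 6.26 on the gl3 egl3 arrays. Both mutant values lay below both wild type values, and the mutant arrays were farther apart from each other than the wild type arrays. The mutant mean was 6.91 ± 0.923 and the wild type mean 8.31 ± 0.371 (± SD over 2 arrays). The log2 difference of -1.40 (SE 0.61, 95% interval -3.53 to 0.72) corresponds to 2.64-fold less transcript, with a limma adjusted p of 0.705. Of all probe sets tested, 140 of 22746 (0.616%) had a difference as low or lower. For UGT89C1, UGT78D2 and AT4G14090, described below, the same share was 2.84%, 8.16% and 11.1%. The gap of 1.305 between the mutant arrays was matched or exceeded in 1.13% of probe sets. Accordingly the size depended on which mutant array was used, at -2.06 without gl3 egl3 replicate 1, whereas leaving out replicate 2 gave -0.75.

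UGT89C1, which places rhamnose on the A-ring hydroxyl of flavonols, had weak signal on all arrays. Its log2 expression was 3.47 and 2.97 in wild type, and 2.46 and 2.40 in gl3 egl3. The groups did not overlap, and the mutant arrays were nearly equal. The mutant mean of 2.43 ± 0.041 lay at the low end, and the wild type mean was 3.22 ± 0.354 (± SD over 2 arrays). The log2 difference was -0.79 (SE 0.22, 95% interval -1.55 to -0.03), with a limma p of 0.0464 before adjustment and an adjusted p of 0.525. The p before adjustment was 0.044 in limma with quantile normalization, 0.0166 with centring on medians and 0.0249 with an intensity trend and robust variances. It was 0.0747 in limma with 16 added to each linear value, 0.0638 with a replicate block and 0.0888 in the methods' t-test. The difference was -0.25 with 16 added, a setting that damps differences among dim probe sets. Leaving out wild type replicate 1 gave -0.54 and leaving out replicate 2 gave -1.04.

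UGT78D2 encodes the enzyme that joins glucose to the C-ring hydroxyl of both flavonols and anthocyanidins, and so serves both branches. Its log2 expression was 5.90 and 5.50 in wild type, and 5.28 and 5.31 in gl3 egl3. The mutant arrays agreed within 0.03, and both lay below the lower wild type array. The mutant mean was 5.30 ± 0.021 and the wild type mean 5.70 ± 0.282 (± SD over 2 arrays), a log2 difference of -0.40 (SE 0.17, 95% interval -1.004 to 0.20) or 1.32-fold, with a limma adjusted p of 0.705. With wild type replicate 1 left out it was -0.20, and with replicate 2 left out -0.60.

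AT4G14090 encodes the enzyme that adds glucose to the A-ring hydroxyl of anthocyanins, the only one of the 4 genes whose product acts on anthocyanins alone. Its log2 expression was 2.77 and 2.25 in wild type, and 2.21 on both gl3 egl3 arrays. Both group means lay at the low end, and wild type replicate 1 was the highest array, itself under 3. The mutant mean was 2.21 ± 0.0006 and the wild type mean 2.51 ± 0.362 (± SD over 2 arrays), a log2 difference of -0.30 (SE 0.22, 95% interval -1.08 to 0.47) with a limma adjusted p of 0.793. Without wild type replicate 1 the difference was -0.04, without wild type replicate 2 it was -0.56, and with 16 added on the linear scale it was -0.08.

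**Figure D1:**
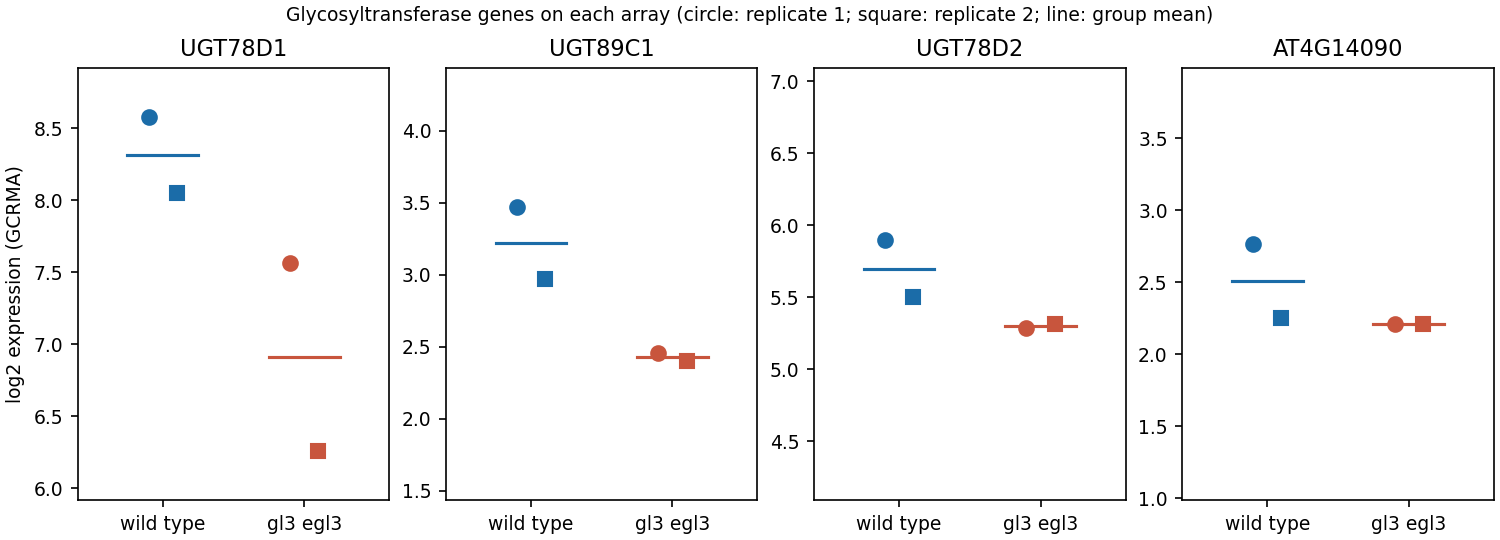
Log2 expression of the 4 genes on each array, in panels of equal height of 3 log2 units; circles are replicate 1, squares replicate 2 and lines the group means. Both gl3 egl3 arrays lie below both wild type arrays in each panel, and wild type replicate 1 is the highest array in all 4.

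All 4 genes were thus lower in gl3 egl3 without overlap between the groups, a separation shared by 12.7% of the 22746 probe sets (2886). The share was 18.3% of the 11298 with a mean of 5 or more, which include UGT78D1 and UGT78D2 only. UGT89C1 had its mutant mean at the low end, and AT4G14090 had both means there. For AT4G14090 the lower wild type array was at 2.25 against 2.21 in gl3 egl3, a separation that says little. The median log2 difference of the 4 genes was -0.59, against 0.01 over all probe sets tested, of which 37.2% had a lower mean in gl3 egl3. Probe sets at the low end, where a difference says little, are counted in that share. At an unadjusted p under 0.05, 1 of the 4 genes, UGT89C1, was lower, beside 3.72% of all probe sets, and it did not keep that call in the methods' t-test. None of the 4 passed a limma adjusted p of 0.05, and neither did any other probe set (0 of 22746, 0%), the smallest adjusted p being 0.0769. At an unadjusted limma p under 0.05 there were 2117 probe sets, and the methods' t-test gave 0 after adjustment. With 2 arrays against 2, an exact two-sided permutation test cannot go below 0.333, the value that each of the 4 genes reached. The 4 differences rest on the same 4 plant samples and are not independent of one another.

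**Figure D2:**
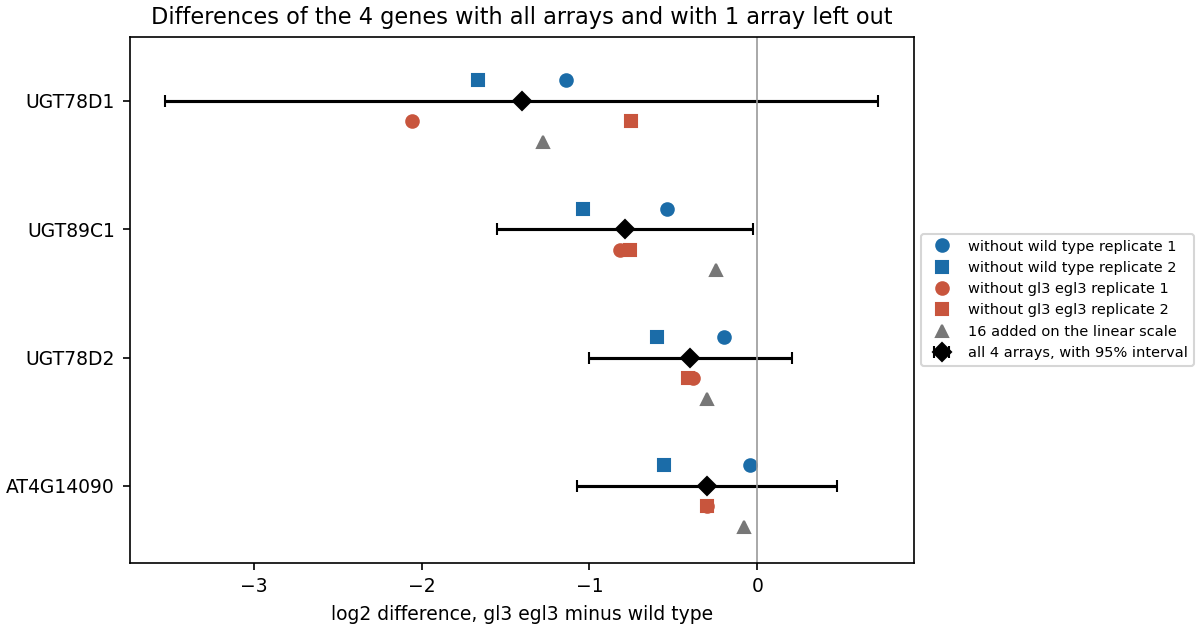
Log2 difference (gl3 egl3 minus wild type) of each gene with all 4 arrays and its 95% interval (diamonds and bars), with 1 array left out (circles and squares) and with 16 added on the linear scale (triangles). All points lie below 0, the nearest to it at -0.04 for AT4G14090, and of the intervals with all 4 arrays that of UGT89C1 alone stays below 0.

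The gaps between replicates were read within each group. Wild type replicate 1 was above wild type replicate 2 for all 4 genes, by 0.40 (UGT78D2) to 0.52 (UGT78D1) on the log2 scale. The reverse order was the more frequent one on the array, where 36.2% of probe sets were higher on wild type replicate 1. That share counts probe sets at the low end, where the order says little. A gap at least as wide as that of UGT78D1 occurred in 6.33% of all probe sets, and in 7.14% of those with a mean of 5 or more. Between the mutant arrays the gap was under 0.06 for UGT89C1, UGT78D2 and AT4G14090, against 1.305 for UGT78D1. Gaps at least as wide as those of the first-named genes occurred in 55.3%, 61.6% and 90.8% of all probe sets. UGT89C1 and AT4G14090 had mutant means at the low end, where values are drawn together, so their small gaps say little.

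A ratio taken within an array shows whether 2 genes moved by unlike amounts, whatever the signal of that array. It was taken for every pair of the 4 genes. It is given for UGT78D1 and UGT78D2 alone, since UGT89C1 and AT4G14090 were too near the floor of the scale. The enzymes of this pair act at the same position with different sugars. The log2 ratio of UGT78D1 to UGT78D2 was 2.68 and 2.55 in wild type, against 2.28 and 0.94 in gl3 egl3. It was lower on both mutant arrays, by far the most on gl3 egl3 replicate 2, and was not tested.

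Other genes of the pathway were then read beside them. Most were not measured by a named probe set. Of 9 early flavonoid and flavonol genes beside the 4 followed here, 2 were measured, and neither rose above the low end in its group means. CHIL, which assists chalcone synthase, was at 2.69 and 2.21 in wild type and 2.21 on both mutant arrays. UGT78D3, a flavonol arabinosyltransferase gene, was at 2.25 and 2.26 in wild type and 2.27 on both mutant arrays. Of 9 late anthocyanin genes, 3 were measured, all at the low end. DFR, the first enzyme committed to the late steps, was at 2.67 and 2.16 in wild type and 2.16 on both mutant arrays. UF3GT, which adds xylose to the anthocyanin sugar, differed by -0.05, and the malonyltransferase gene AT5MAT was at 2.18 to 2.19 on all arrays. None of the 5 genes passed the limma adjusted threshold or an unadjusted p under 0.05. The median difference was -0.12 in the early list, over CHIL and UGT78D3 alone, and -0.05 in the late list, the value of UF3GT. It was 0.01 over all probe sets. With all 5 genes at the low end, the medians of these lists say little.

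CHIL and DFR, like AT4G14090, were highest on wild type replicate 1 while the other arrays lay close together, all of these values being under 3. In all, 59 probe sets reached 2.6 or more on wild type replicate 1 while they stayed under 2.3 on each other array, against 130 for wild type replicate 2, 23 for gl3 egl3 replicate 1 and 33 for gl3 egl3 replicate 2. These limits were set after the values were seen. The 4 glycosyltransferase genes and the 5 genes of the early and late lists make 9 together. Wild type replicate 1 exceeded replicate 2 by 0.3 or more in 6 of them, as it did in 13.2% of all probe sets. These 6 are the 4 glycosyltransferase genes, whose gaps are given above, with CHIL and DFR, so the count adds no separate result. The gl3 egl3 arrays were 0.3 or more apart in 1 of these 9 genes, UGT78D1, and in 22.9% of all probe sets. Only UGT78D1 and UGT78D2 had mutant means above the low end. The others could hardly differ by 0.3 between mutant arrays, so this count says little.

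RHM1, a synthase of UDP-rhamnose, the sugar donor of UGT78D1 and UGT89C1, was the 1 gene measured of 7 for the supply of nucleotide sugars. Its log2 expression was 8.80 and 8.41 in wild type, and 8.37 and 7.71 in gl3 egl3. The arrays stood in the same order as for UGT78D1, and the groups did not overlap. The log2 difference was -0.57 (SE 0.34) with a limma adjusted p of 0.793. It was -0.24 when gl3 egl3 replicate 2 was left out, and -0.90 when replicate 1 was.

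Of 21 regulators of the flavonoid pathway, 5 were measured. MYBL2, a single-repeat MYB that represses anthocyanin formation, was at 10.3 and 10.4 in wild type, and 8.77 and 9.12 in gl3 egl3. It was the 1 regulator at an unadjusted limma p under 0.05, lower by 1.41 on the log2 scale with an adjusted p of 0.249, where 3.72% of all probe sets were lower at that unadjusted p. CPC, a related inhibitor, was at 3.92 and 5.23 in wild type and 2.92 and 2.72 in gl3 egl3, with a limma adjusted p of 0.591. TTG1, the WD-repeat partner of the complexes, was at 8.10 and 8.28 in wild type and 8.29 and 7.81 in gl3 egl3, so that its groups overlapped. EGL3 and TTG2 lay at the low end. The median difference of the regulators was -0.14.

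**Figure D3:**
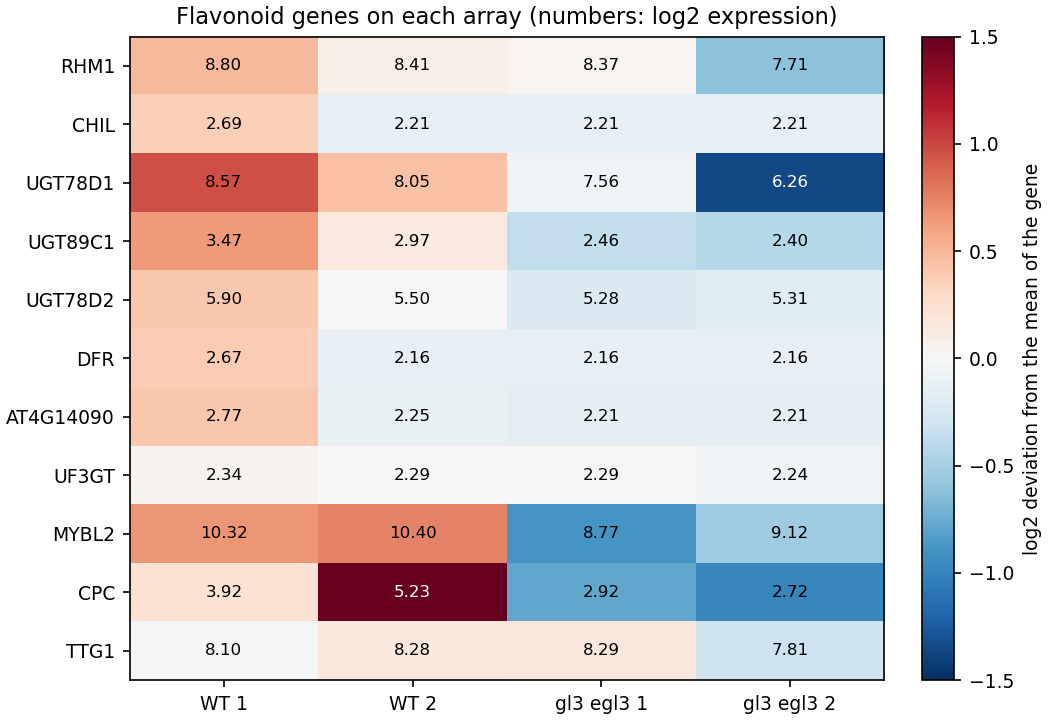
Log2 expression of the 4 glycosyltransferase genes and 7 further flavonoid genes on each array (numbers), coloured by the deviation from the mean of the gene. The further genes were picked from those measured, and each gene shown has a lower mean in gl3 egl3. UGT80B1, also lower, is not shown. Nor are UGT78D3, AT5MAT, BAN, EGL3 and TTG2, all at the low end with differences of 0.00 to 0.01. UGT78D1 (8.57 to 6.26) and RHM1 (8.80 to 7.71) are highest on wild type replicate 1 and lowest on gl3 egl3 replicate 2, while CHIL, DFR and AT4G14090 are highest on wild type replicate 1, with all their values under 3.

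No gene of the general phenylpropanoid steps (0 of 9) was measured. Of 8 genes of proanthocyanidins and the seed coat, 2 were. BAN, which acts in the seed coat, lay at the low end on all arrays, and UGT80B1, which glycosylates sterols, was at 6.83 and 6.71 in wild type and 6.74 and 6.22 in gl3 egl3, with overlapping groups.

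To see whether lower expression was a trait of UGT genes at large, the 45 other genes with a UGT symbol were read in the same way, a group that also holds UGT78D3 and UGT80B1. Of these, 14 had a lower and 31 a higher mean in gl3 egl3, with a median log2 difference of 0.01, and for 18 both group means were at the low end. Among the other 27, 11 were lower and 16 higher, with a median of 0.03. Groups were separate and lower for 8 of the 45, where 12.7% of all probe sets were, and separate and higher for 18, where 38.1% of all probe sets were. Among the 27 not at the low end in both groups, 8 were separate and lower and 6 separate and higher. At an unadjusted limma p under 0.05, 4 were lower (3.72% of all probe sets) and 2 higher (5.58% of all probe sets), and none passed after adjustment.

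The 3 lowest of these genes were near UGT78D1 in size. UGT72E1, which glucosylates monolignol aldehydes, was at 8.02 and 8.30 in wild type and 7.01 and 6.45 in gl3 egl3, a log2 difference of -1.43 with a limma adjusted p of 0.396. UGT71B1 was at 8.39 and 8.47 against 7.31 and 7.22, a difference of -1.17 with a limma adjusted p of 0.188. UGT74B1, an enzyme of glucosinolate synthesis, was at 9.27 and 9.15 against 8.10 and 8.28, a difference of -1.03 with a limma adjusted p of 0.237. All 3 had narrower gaps between the mutant arrays than UGT78D1. UGT85A7, near the low end, was the fourth at an unadjusted p under 0.05, with a difference of -0.27. At the other end, UGT76C2, which inactivates cytokinins, was at 5.73 and 5.96 in wild type and 7.16 and 6.67 in gl3 egl3, a log2 difference of 1.07 with a limma adjusted p of 0.431. UGT71C2 differed by 0.75 and UGT85A3 by 0.44, both at the low end in wild type. UGT85A2, at 10 in wild type and 10.4 in gl3 egl3, was the other of the 2 higher genes at an unadjusted p under 0.05, with a difference of 0.37.

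**Figure D4:**
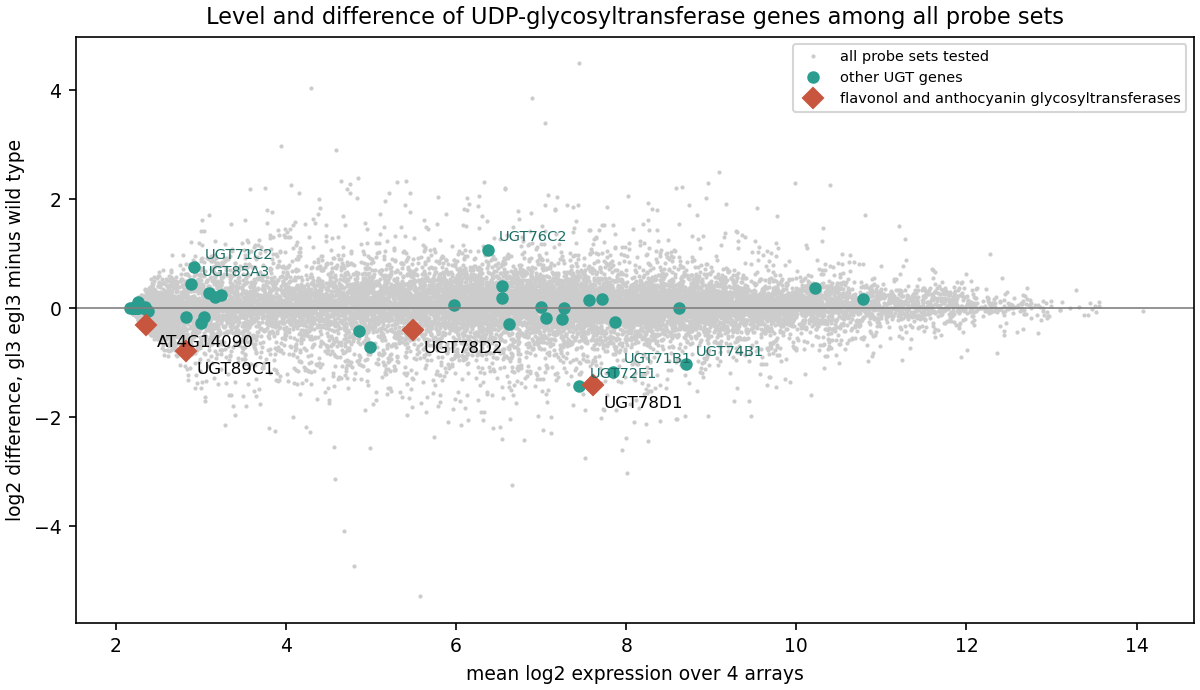
Log2 difference (gl3 egl3 minus wild type) against the mean log2 expression over 4 arrays, for all 22746 probe sets (grey), the 45 other UGT genes (green circles) and the 4 flavonol and anthocyanin glycosyltransferase genes (red diamonds). The 4 genes lie below 0, from -0.30 to -1.40, while the other UGT genes lie on both sides, from -1.43 to 1.07.

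The chromosomal neighbours measured were named for their position. UGT78D3 and AT5G17040 precede UGT78D2 on chromosome 5. AT5G17040 was at 3.04 and 2.45 in wild type and 2.45 on both mutant arrays, a difference of -0.29 in which here too wild type replicate 1 alone stood out. AT1G30540, next to UGT78D1, was higher in gl3 egl3 by 0.29 (SE 0.09), with a limma adjusted p of 0.55, and AT1G06010, next to UGT89C1, by 0.12. AT4G14100 overlaps AT4G14090 in the RefSeq annotation and was at 7.68 and 7.85 in wild type and 7.86 and 7.85 in gl3 egl3, far from the floor at which AT4G14090 lay. The RefSeq annotation also places the long noncoding RNA genes AT1G06002 and AT4G06175 over UGT89C1 and AT4G14090, and whether the probe sets read them is not known.

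Finally, the named genes with the most similar profile over the 4 arrays were sought for each of the 4 genes, by the root mean square difference of mean-centred log2 values among 13563 other probe sets of 1 gene. The closest to UGT78D1 were AT5G55450 (0.07), AT3G51450 (0.11) and AT1G17744 (0.16). AT5G55450 was at 9.30 and 8.75 in wild type and 8.19 and 6.81 in gl3 egl3, and thus showed the same wide gap between the mutant arrays. The closest to UGT89C1 were AT1G62290 (0.041), AT1G78410 (0.044) and AT3G61690 (0.047). The closest to UGT78D2 were AT5G44860 (0.021), AT1G52200 (0.025) and AT1G19970 (0.035), and the closest to AT4G14090 were AT5G54860 (0.014), AT1G80320 (0.020) and AT5G58540 (0.020). No gene of the flavonoid lists was among these 12. With 4 arrays, such likeness is a description.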

How the data were processed

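The deposited log2 values are GCRMA expression estimates that the authors obtained from ATH1 arrays hybridised with biotin-labelled, amplified cDNA. The sources used here do not give its version or say whether other arrays were normalized with these 4. The 64 control probe sets were dropped. Genes were named through the platform annotation and RefSeq (assembly TAIR10.1, names and gene order only), and a further 51 probe sets from the study's list of trichome genes. The platform annotation gave 1 gene for 13513 probe sets, several for 503 and none for 8730, and 13436 matched RefSeq by gene number. An unnamed probe set is not one without a gene.

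limma 3.58.1 (lmFit and eBayes, R 4.3.3) gave the difference of gl3 egl3 from wild type, two-sided, without covariates and with Benjamini-Hochberg adjustment over 22746 probe sets. There were 2 residual and 0.623 prior degrees of freedom. The number of arrays limits the precision. The script was checked on simulated data. The members and gene lists were chosen with earlier results of these data known. Named are the 4 genes, list members at an unadjusted p under 0.05 or else the 2 with the largest difference, the 3 highest and 3 lowest other UGT genes, and the 3 most similar profiles. Genes named beyond this are said to be so or complete a list.

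The alternatives were quantile normalization, centring on medians, 16 added on the linear scale, a filter at a mean of 5, the methods' t-test, robust variances with an intensity trend, a replicate block, and leaving out each array in turn.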

Additional observations from a re-analysis of the deposited data

How the results depend on the processing

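No value of the 4 glycosyltransferase genes passed the adjusted threshold under the alternatives, and neither did any other probe set. Their direction with 1 array left out or with 16 added is fixed by the separate groups. Other tests leave the difference as it is, and centring on medians lowers that of every probe set by the same amount. An unchanged direction thus shows no stability in these settings. Quantile normalization could have turned the direction and did not. UGT89C1 and AT4G14090 drop out under the filter (mean of 5 or more), and each of the 4 genes has 1 probe set, so that a mean over several was not run. With the filter, UGT78D1 had a limma p of 0.0375 before adjustment, against 0.119 without it, and an adjusted p of 0.328. With 1 array left out, UGT78D1 ranged from -2.06 to -0.75, UGT89C1 from -1.04 to -0.54, UGT78D2 from -0.60 to -0.20 and AT4G14090 from -0.56 to -0.04. Such fits take the spread of the remaining single array from the other group. With the replicate block, UGT78D1 differed by -1.40 as without it, with a limma adjusted p of 0.466. No call after adjustment existed to change. At an unadjusted limma p under 0.05, UGT89C1 (0.0638), UGT72E1 (0.0693), UGT85A7 (0.108) and UGT76C2 (0.0831) were no longer called with the block, and RHM1 (0.0474) was. The labels do not say that replicate numbers pair the samples, and the replicate differences of the groups correlated at 0.134 over probe sets.

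The count of probe sets higher at an unadjusted p under 0.01 was 462, but 289 with the filter, 259 with an intensity trend and 205 with the methods' t-test, which also gave 118 lower in place of 278. With 1 array left out, the lower count ranged from 175, when gl3 egl3 replicate 2 was omitted, to 905, when wild type replicate 1 was, with 676 on omitting wild type replicate 2, and the higher count from 372 to 441. Of 304 values of single genes under the alternatives, 11 turned direction. Centring on medians gave -0.0258 for UGT78D3, -0.0308 for AT5MAT, -0.0287 for EGL3, -0.0307 for BAN and -0.0244 for TTG2, and gave 439 higher and 398 lower at that p. In addition, quantile normalization gave -0.0001 for AT5MAT and -0.0005 for BAN. With 1 array left out, CHIL ranged from -0.4775 to 0.0014, BAN from -0.0001 to 0.0048, AT5G17040 from -0.5903 to 0.0029 and TTG1 from -0.3826 to 0.0962, the positive end without wild type replicate 1 for CHIL and AT5G17040 and without gl3 egl3 replicate 2 for TTG1. The cause was not tested.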

Other observations

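Probe sets that read more than 1 gene were kept out of the comparisons, and their genes are not named here. One that reads 2 UDP-glycosyltransferase genes was at 9.40 and 9.57 in wild type, and 8.44 and 8.30 in gl3 egl3, a log2 difference of -1.11 (SE 0.10) with a limma adjusted p of 0.237. Of 2 other such probe sets that read a UDP-glycosyltransferase gene, both had overlapping groups, with log2 differences of 0.01 and 0.00. One that reads 2 anthocyanin acyltransferase genes was at 3.31 and 2.88 in wild type, and 4.104 and 3.51 in gl3 egl3, a log2 difference of 0.71 (SE 0.32) with a limma adjusted p of 0.716. Its direction was opposite to that of the 4 glycosyltransferase genes, and wild type replicate 1 was again the higher wild type array.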
